A study of Mus musculus with 37 samples.

Results

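Muribaculaceae is a family of Gram-negative anaerobes of the order Bacteroidales. In the deposited 16S rRNA gene data its members were all sequence variants whose taxon table entry read Muribaculaceae at the family rank. The rule found 1092 variants of the 6085 kept from 6100 rows. They made up 28.6% ± 8.18 of the reads of a library (SD, n = 37). The rule uses the taxon name alone and no measured value, but the family was chosen for study with earlier results of these data known.

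The family is among the most abundant in the mouse gut. Its members are known to break down dietary and host polysaccharides and to release short-chain fatty acids and succinate. Most have not been grown in culture, and Muribaculum is among the few genera with a cultured species. A sequence variant is a distinct amplicon read sequence. A bacterium can carry more than 1 copy of the 16S rRNA gene, and those copies can differ in sequence, so a variant is not the same as a strain.

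The data were bacterial 16S rRNA gene amplicons of the V3–V4 region from stool of adolescent C57Bl/6 mice. In the prenatal alcohol exposure (PAE) groups the dams drank 10% ethanol for the initial 10 days of gestation and water thereafter. Dams of the control groups drank water throughout. There were 11 control and 10 PAE libraries from males, and 7 control and 9 PAE libraries from females. The labels do not say which animals shared a dam, litter or cage, so the p-values below measure the spread between these libraries, which may not be independent.

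The labels number the libraries from 1 to 37. Controls have the numbers 1 to 10 (5 males, 5 females) and 30 to 37 (6 males, 2 females). PAE females have 11 to 15 and 26 to 29, and PAE males have 16 to 25. The 4 stretches 1 to 10, 11 to 19, 20 to 29 and 30 to 37 are called label-number runs here. The labels do not say what a run stands for. They mark no break between 19 and 20, which are both PAE males within the unbroken stretch 16 to 25. Each run holds a single exposure. Reads per library ranged from 102672 to 1813237, with a median of 293111. Depth moved with the runs: the median was 230299 reads in run 1 to 10, 208798 in run 11 to 19, 502266 in run 20 to 29 and 652046 in run 30 to 37. In Muribaculaceae composition libraries 20 to 37 were on average farther from all other libraries than libraries 1 to 19 were. Their mean Bray-Curtis distance to all other libraries, which runs from 0 for identical to 1 for non-overlapping composition, was 0.622 to 0.792, against 0.488 to 0.601 in libraries 1 to 19, and libraries 34 to 37 were the farthest at 0.783 to 0.792. A mean over all others is lower for members of a larger alike set, so it does not show which set stands apart. Results are also given without libraries 20 to 37 and without the smaller sets 20 to 24, 26 to 29 and 34 to 37. All these sets were chosen after the data were seen.

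The 1092 variants had little taxonomic detail. The genus field repeated the family name for 1069 variants, named Muribaculum for 21 and was empty for 2. The Muribaculum variants held 1.62% of the reads of the family. At the species rank 881 variants were listed as an uncultured bacterium, and 13 were listed as Muribaculum intestinale, with 0.000935% of the family's reads between them. Variants are named here by their rank in mean share over the 37 libraries, Muri1 being the most abundant. In the deposited table the identifier of Muri1 begins with c874b225, that of Muri2 with 48ebe398, that of Muri3 with f67a6d5d, that of Muri4 with a08e5132 and that of Muri5 with 5a50ef39.

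As a whole the family was a steady part of the community. Its share of reads ranged from 15.7% in PAE female 26 to 48.0% in PAE male 17, a 3.05-fold range. Over the same libraries the range was 2.67-fold for Lachnospiraceae, 9.72-fold for Rikenellaceae, 27.1-fold for Bacteroidaceae, 31.2-fold for Tannerellaceae, 65.0-fold for Marinifilaceae and 67.1-fold for Prevotellaceae. By group the mean share was 31.5% ± 5.85 in control males (SD, n = 11), 24.7% ± 10.01 in PAE males (n = 10), 32.9% ± 6.01 in control females (n = 7) and 26.01% ± 8.004 in PAE females (n = 9). The ranges of the exposure groups overlapped in both sexes. Of the 9 lowest shares 8 lay in run 20 to 29, where the median was 18.6%, and the other was that of PAE female 13 (17.7%) in run 11 to 19. In run 11 to 19, also PAE, the median was 28.9%, against 31.1% in control run 1 to 10 and 31.6% in control run 30 to 37.

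On counts summed per family the log2 fold change of PAE against control was -0.43 (SE 0.22) in males and -0.40 (SE 0.25) in females, neither past the threshold of 0.05 (edgeR quasi-likelihood test, adjusted p = 0.226 and 0.719, over 59 families). Of the families tested, 5.08% were called in males and 1.69% in females. The difference between the sexes was -0.03 (SE 0.33, edgeR adjusted p = 0.999; no family was called). The male value changed sign, to 0.17, when libraries 20 to 24 and 26 to 29 were left out, and to 0.41 without libraries 20 to 37 (edgeR, adjusted p = 0.769 and 0.367).

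**Figure D1:**
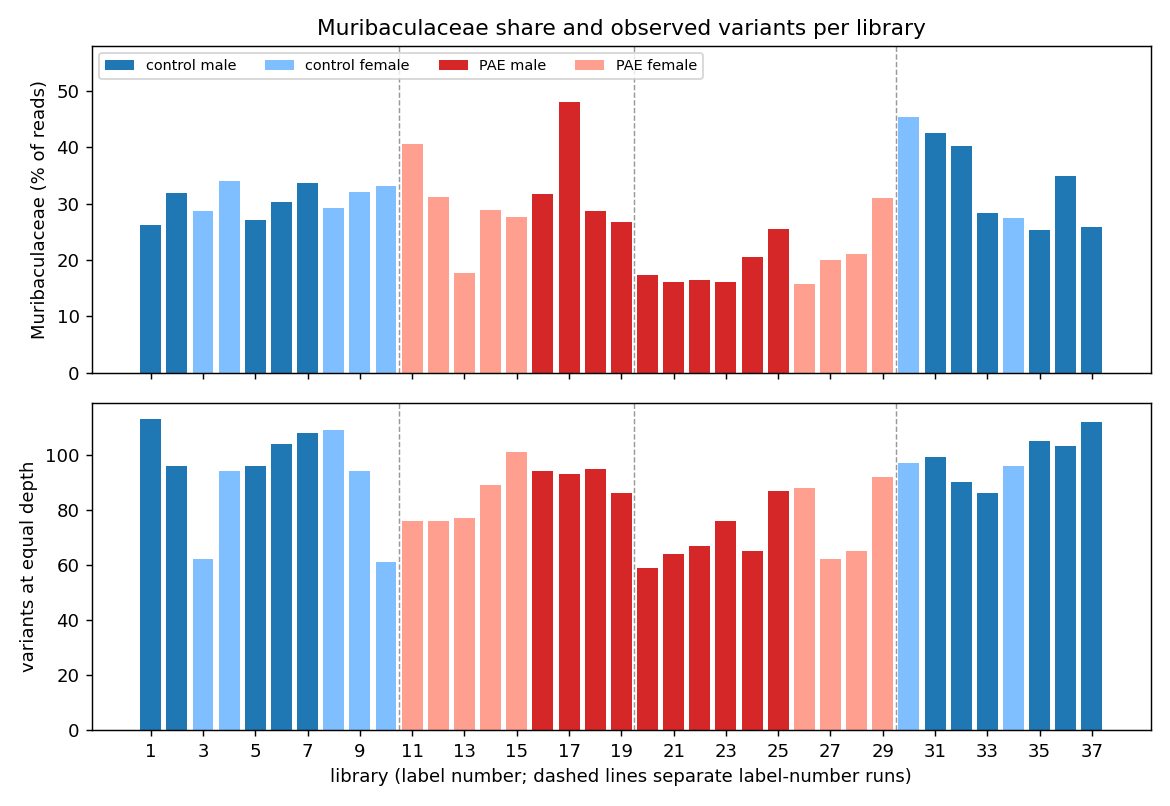
The upper bars show the percent of reads assigned to Muribaculaceae in each of the 37 libraries, in label order, and the lower bars the number of its variants seen when each library was thinned to 21055 family reads. Colours mark the 4 groups; shares lie between 15.7% and 48.0%, and libraries 20 to 24 have both low shares (16.1% to 20.51%) and few variants (59 to 76).

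Under this steady share the variants themselves were patchy. Reads of 906 variants came from a single library, and these variants held 0.137% of the family's reads, with a median of 3 reads each. Of the 906, 695 had 5 reads or fewer. Single-library variants were 83.0% of the family's variants, against 77.5% in Lachnospiraceae. In the other families named above they were 85.7% (Marinifilaceae) to 94.9% (Prevotellaceae), so this was not particular to Muribaculaceae. At the other end 9 variants were found in all 37 libraries and held 26.3% of the reads, and 33 variants in 30 to 36 libraries held 42.5%. In between, 58 variants had reads in exactly 4 libraries and held 11.2%. That group of 58 was mostly made of variants shared by libraries 34 to 37 or by libraries 30 to 33.

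Exactly 36 variants had reads in all of libraries 34, 35, 36 and 37 and in no other library. Together they were 27.9% to 43.1% of the family's reads in those 4 libraries. A further 18 variants had reads in libraries 30, 31, 32 and 33 and nowhere else, and made up 6.23% to 29.8% of the family there. Only 5 variants (Muri59, Muri102, Muri106, Muri110 and Muri116) were found in all 8 libraries of run 30 to 37 and in none of the other 29. So the later control run held variants not read in any other library, and it split between its lower and higher label numbers. Such counts were not taken over the whole table, so the pattern was not shown to be particular to Muribaculaceae.

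Of the 186 variants with reads in at least 2 libraries, 100 were seen in both exposures and held 86.9% of the family's reads. A control-only pattern was seen for 82 variants with 12.8% of the reads, and 80 of these 82 were read in run 30 to 37 alone. A PAE-only pattern was seen for 4 variants with 0.162% of the reads. Control run 1 to 10 and PAE run 11 to 19 shared 92 of these variants, out of 98 in the former and 96 in the latter. Control runs 1 to 10 and 30 to 37 shared 83, out of 98 and 167. By presence of variants, control run 1 to 10 thus had more in common with PAE run 11 to 19 than with the other controls. Presence by exposure and by run was not counted over the whole table either.

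In run 30 to 37 the variants found nowhere else made up a median of 32.3% of the family's reads (9.75% to 48.2%). In the other direction, variants with no read in run 30 to 37 made up a median of 3.16% of the family in run 1 to 10, 3.70% in run 11 to 19 and 4.56% in run 20 to 29. Run 30 to 37 had the highest median depth, and the part of depth in these shares was not tested.

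The 10 most abundant variants showed how the family differed from run to run. They were ranked by mean share over all 37 libraries, 19 of which belong to runs 1 to 10 and 11 to 19, so the ranking itself favours variants of those runs. Together they held a median of 66.5% of the family's reads in run 1 to 10 and 65.9% in run 11 to 19, but 36.5% in run 20 to 29 and 20.45% in run 30 to 37. Run 30 to 37 was the most uneven, with 9.82% to 74.1%. Muri1, Muri2 and Muri3 together held a median of 42.1%, 46.0%, 0.232% and 10.2% in the same order. The most abundant variant of a library was Muri3 in 8 libraries, all numbered 1 to 19. It was Muri4 in 7 libraries, Muri1 in 6, Muri2 in 6 and Muri13 in 3 (libraries 35, 36 and 37).

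Muri1 was 1.45% to 7.11% of all reads in run 1 to 10 (median 4.55%) and 0.988% to 11.2% in run 11 to 19 (median 3.66%). In run 20 to 29 it was 0.00414% to 0.0477%, and in run 30 to 37 it was 0.6996% to 13.9% (median 2.16%). Every library of run 20 to 29 lay below every other library for this variant, while the PAE libraries of run 11 to 19 overlapped the controls.

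Muri2 was 1.17% to 6.93% in run 1 to 10, 1.03% to 11.2% in run 11 to 19 and 0.00454% to 0.0750% in run 20 to 29. In libraries 30, 31, 32 and 33 it was 11.3%, 12.5%, 13.1% and 1.89%. In libraries 34, 35, 36 and 37 it was 0.0103%, 0, 0.0592% and 0.0222%. Muri2 thus followed Muri1 through libraries 1 to 33 and parted from it in 34 to 37, where Muri1 was 0.934%, 0.6996%, 2.52% and 0.893%.

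Muri3 was 2.33% to 7.71% in run 1 to 10 (median 4.20%) and 0.755% to 8.22% in run 11 to 19 (median 3.31%). It was 0.00250% to 0.0127% in run 20 to 29 and 0.00218% to 0.229% in run 30 to 37. All 19 libraries numbered 1 to 19 were above all 18 others, in controls and PAE alike.

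Muri4 had another distribution. It was 1.57%, 3.20%, 2.62% and 9.36% in PAE females 26, 27, 28 and 29 and 4.96% in PAE male 25. It also reached 4.61%, 4.08% and 4.405% in control libraries 6, 7 and 9, and 3.33% and 5.55% in PAE females 14 and 15. In the other libraries numbered 1 to 24 it was between 0.00976% and 0.446%. High and low libraries for Muri4 occurred in both exposures and both sexes.

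Muri5 varied less among most libraries. It was 0.799% to 1.91% in run 1 to 10, 0.896% to 1.74% in run 11 to 19 and 0.0616% to 2.98% in run 20 to 29. It was 0.837%, 0.7005%, 0.691% and 0.693% in libraries 30 to 33 and had no read in libraries 34 to 37. Muri8 was also low in these last 4 libraries, at 0.00192% or less against at least 0.0385% in the other 33.

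Muri6 was 0.648% to 7.11% in run 1 to 10 and 0.696% to 4.39% in run 11 to 19. In run 20 to 29 it was 0.607% and 1.44% in libraries 26 and 29 and 0.00591% or less in the other 8. In run 30 to 37 it was 1.41%, 0.0554%, 0.0983% and 0.761% in libraries 30 to 33 and at most 0.00191% in libraries 34 to 37. Muri7 was 0.00156% to 2.08% in run 1 to 10 (median 1.01%) and 0.000803% to 2.78% in run 20 to 29 (median 1.09%), and at most 0.00332% in run 30 to 37. Libraries 34 to 37 were thus low for Muri5, Muri6, Muri7 and Muri8 alike, while the low libraries of run 20 to 29 differed between Muri6 and Muri7.

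Muri9 was 0.164% to 1.35% in run 1 to 10 and 2.85%, 0.938%, 1.96% and 2.26% in libraries 34 to 37, but at most 0.00557% in libraries 30 to 33. Muri10 was 0.873%, 0.845%, 0.795% and 0.682% in libraries 34 to 37 and at most 0.0974% in 30 to 33. Both were thus found in the control libraries 34 to 37 and near 0 in the control libraries 30 to 33, the reverse of Muri2 and Muri5.

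**Figure D2:**
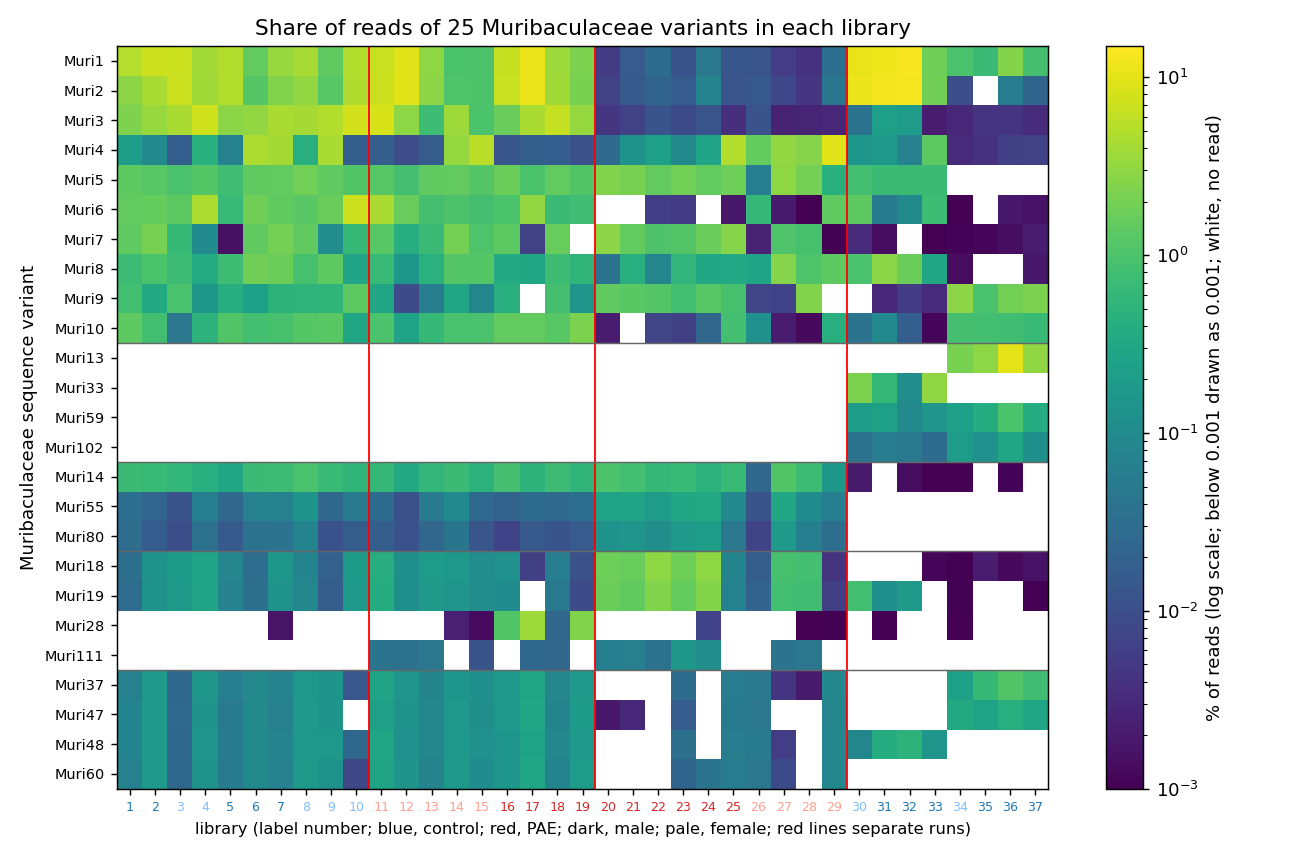
Each cell gives the percent of all reads of 1 Muribaculaceae variant (rows) in 1 library (columns, in label order) on a log colour scale, with white for no read. The blocks from top to bottom are the 10 most abundant variants, 4 variants read in run 30 to 37 alone, 3 variants lower there, 4 variants higher in PAE males, and 4 Muribaculum variants; the colours change at the run borders and between libraries 33 and 34 more than between controls 1 to 10 and PAE 11 to 19.

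Turnover was summarised with the Bray-Curtis distance over the family's variants, after thinning each library to 21055 family reads. Pairs of libraries are not independent, so these distances are a description with no test. Within run 1 to 10 the mean distance was 0.340 ± 0.102 (SD over 45 pairs), and within run 11 to 19 it was 0.394 ± 0.120 (36 pairs). Between these 2 runs, controls against PAE, it was 0.372 ± 0.114 (90 pairs). The distance between the exposures in the low label numbers was therefore of the size found within each of these 2 runs.

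Distances across the other runs were larger. The mean was 0.707 ± 0.124 between the control runs 1 to 10 and 30 to 37, and 0.712 ± 0.122 between the PAE runs 11 to 19 and 20 to 29. Between runs 20 to 29 and 30 to 37 it was 0.848 ± 0.0467. Within run 30 to 37 it was 0.660 ± 0.274, with pairs from 0.136 to 0.911. Libraries of the same exposure were thus far apart where their runs differed.

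The same order held within males. By run, the female distances given below had that order too, but none covers the 2 control females of run 30 to 37. Control males 1 to 10 and PAE males 16 to 19 were 0.342 ± 0.0919 apart, against 0.291 ± 0.0929 within the former and 0.344 ± 0.0709 within the latter. PAE males 16 to 19 and 20 to 25 were 0.746 ± 0.0879 apart, and control males 1 to 10 and 30 to 37 were 0.702 ± 0.117 apart. Control females 1 to 10 and PAE females 11 to 15 were 0.406 ± 0.138 apart, while PAE females 11 to 15 and 26 to 29 were 0.646 ± 0.160 apart. Over all libraries the mean control to PAE distance was 0.682 in males and 0.608 in females. The male value was 0.479 without libraries 20 to 24, 26 to 29 and 34 to 37.

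The closest library to each library gave the same picture. It lay in the same run for 26 of 37 libraries, in the same exposure for 28 and in the same sex for 20. For all 8 libraries of run 30 to 37 and for 8 of 10 of run 20 to 29 it lay in their own run. For 5 of the 9 PAE libraries of run 11 to 19 it was a control of run 1 to 10, and for 4 of those 10 controls it was a PAE library of run 11 to 19.

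**Figure D3:**
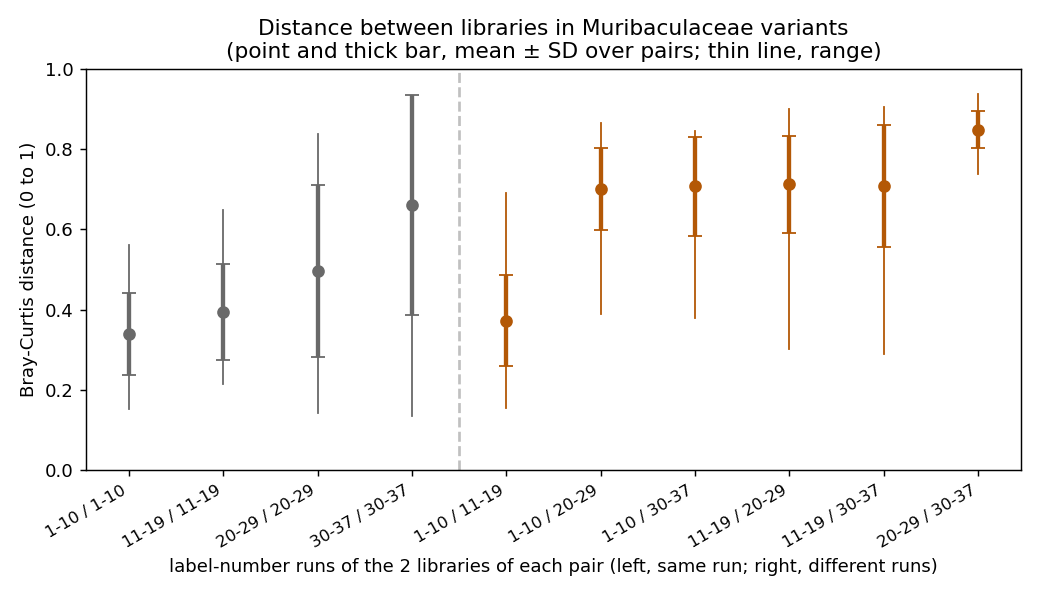
Bray-Curtis distance between pairs of libraries over Muribaculaceae variants (vertical axis, 0 to 1) for pairs within a label-number run (left) and between runs (right). Points and thick bars give the mean ± SD over pairs and thin lines the range; the pair of runs 1 to 10 (control) and 11 to 19 (PAE) averages 0.372, near the 0.340 and 0.394 within them, and the other 5 pairs of runs average 0.7002 to 0.848.

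At equal family depth a library held 101 ± 8.62 variants in control males (SD, n = 11) and 78.6 ± 13.99 in PAE males (n = 10). It held 87.6 ± 18.54 in control females (n = 7) and 80.7 ± 12.8 in PAE females (n = 9). In PAE males the low counts were those of libraries 20 to 24, at 59, 64, 67, 76 and 65. PAE males 16 to 19 had 94, 93, 95 and 86, within the control male range of 86 to 113. The mean of PAE minus control in males was -22.5 over all libraries and -8.0 without libraries 20 to 24, 26 to 29 and 34 to 37. Without libraries 20 to 37 it was -11.4. In females the difference was -6.9, -2.37 and -0.2 in the same order. Low counts were not confined to these PAE males. PAE females 27 and 28 of the same run had 62 and 65 variants, but PAE females 26 and 29 had 88 and 92. Control females 3 and 10 had 62 and 61.

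The exposure effect was then tested variant by variant in a fit over the whole table. Of the 1092 members, 95 reached 5 reads in 7 libraries or more and entered the test. They covered a median of 99.8% of a library's family reads, but 56.1% to 91.3% in run 30 to 37, so many variants of that run were not tested. Of the 95, 6 reached 5 reads in run 30 to 37 alone and 2 in PAE libraries alone, and such variants could pass only through the group where they were high. A further limit is that 13 of the 95 reached 5 reads in libraries 1 to 29 alone, the 2 of PAE libraries among them.

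In males 13 of the 95 variants were called, 4 higher and 9 lower in PAE (edgeR quasi-likelihood test, adjusted p under 0.05). Of all 553 variants tested 12.1% were called, 4.16% higher and 7.96% lower, and 13 of 95 is near that share. In females 13 of 95 were called as well, 3 higher and 10 lower, against 12.3% of all variants tested, 3.98% higher and 8.32% lower. The 6 tested variants of run 30 to 37 alone were called lower in both sexes. The 2 of PAE libraries alone, Muri28 and Muri111, were called higher in males, and Muri111 also in females. These calls thus include variants that could pass the filter only through the group where they were high. The median log2 fold change of the 95 was -0.56 in males and -0.02 in females, beside -0.71 and 0.26 over all 553. The lists of the sexes had 10 variants in common, 10 of 13 in each. Over all 553 variants they had 43 in common, of 67 called in males and 68 in females. Of the 10, 9 were lower in PAE in both sexes, and the controls of both sexes include libraries of run 30 to 37, so the lists are not independent evidence of an exposure effect. None of the 10 most abundant variants was called in either sex (adjusted p 0.580 to 0.991 in males and 0.677 to 0.987 in females).

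The split of male calls differed between scalings and between test methods. With edgeR's TMMwsp scaling 7 were higher and 8 lower (13.9% of all variants called). With family reads as library size it was 5 and 7 (12.7%), with DESeq2 8 and 6 (13.6%), and with limma on centred log-ratios 16 and 3 (17.2%). The median log2 fold change of the 95 turned from -0.56 to 0.39 in limma. In females DESeq2 gave 4 and 8 (10.1%), and limma called 0 of the 95 (1.63%), with 11 at an unadjusted p under 0.05.

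The variants lower in PAE were for the most part those of the later control run. Of the 9 lower in males, 7 had control reads in run 30 to 37 alone and 6 had no read in any PAE male. Of the 10 lower in females, 7 had control reads in run 30 to 37 alone and 7 had no read in any PAE female. Their lower level in PAE therefore cannot be told apart from the run that carries them.

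Muri59 (0fb2db1d) was an example. It had no read in libraries 1 to 29 and was 0.199%, 0.241%, 0.0941%, 0.151%, 0.249%, 0.382%, 0.983% and 0.390% of reads in libraries 30 to 37. The fold was at least 2249 lower in PAE males, with 3 reads over the group as the bound (adjusted p = 0.00518), and at least 933 lower in PAE females (adjusted p = 0.0185, edgeR). The 10 controls numbered 1 to 10 were as free of Muri59 reads as the 19 PAE libraries. Muri59 passed the filter on reads through libraries 30 to 37 alone, so these p-values are a description.

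Muri102, Muri106, Muri110 and Muri116 followed the same pattern at lower levels. Muri102 was 0.0293% to 0.285% in run 30 to 37, Muri106 was 0.0534% to 0.155%, Muri110 was 0.0298% to 0.211% and Muri116, a Muribaculum variant, was 0.0124% to 0.153%. In males their edgeR adjusted p lay at 0.00552, 0.00528, 0.00518 and 0.00673, and in females at 0.0185, 0.0185, 0.0212 and 0.0185. None had a read in libraries 1 to 29. They too passed the filter on reads through run 30 to 37 alone, so these p-values are a description.

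Muri78 rested mostly on 3 libraries. It was 0.772%, 0.0238%, 0.604% and 0.244% in libraries 34 to 37, 0.00341% and 0.00475% in controls 6 and 9, 0.00339% in PAE male 21, and without a read elsewhere. It was called lower in PAE males (log2 fold change -8.41, edgeR adjusted p = 0.0342) and in PAE females (adjusted p = 0.0185). The female call was lost without control female 34 (edgeR adjusted p = 0.1504).

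Of the 4 variants higher in PAE males, Muri18 and Muri19 were carried by libraries 20 to 24. Muri18 was 1.81%, 1.62%, 2.88%, 1.79% and 2.95% in these 5 males. In PAE males 16, 17, 18, 19 and 25 it was 0.129%, 0.00616%, 0.0609%, 0.0109% and 0.0760%, and in control males it ranged from 0 to 0.163%. So 5 of 10 PAE males exceeded every control male and the other 5 lay within the control range.

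Muri18 averaged 1.13% ± 1.21 in PAE males (SD, n = 10) and 0.0408% ± 0.0588 in control males (n = 11), a ratio of means of 27.7, and edgeR gave 5.03 on the log2 scale (SE 1.46, adjusted p = 0.0126). With controls 1 to 10 alone the adjusted p was 0.154, and without libraries 20 to 24 and 26 to 29 the log2 fold change was 0.59. Muri19 averaged 0.991% ± 1.05 against 0.0648% ± 0.0680 (log2 fold change 4.31, SE 1.40, adjusted p = 0.0318). Its sign turned to -0.22 without libraries 20 to 24 and 26 to 29. PAE females 27 and 28 also had high Muri18, at 0.919% and 0.862%.

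Muri28 belonged to the other PAE males. It was 1.11%, 3.71%, 0.0238% and 2.47% in PAE males 16, 17, 18 and 19, and at most 0.00682% in any of the other 33 libraries, PAE females 11 to 15 included. Its log2 fold change in males was 11.40 (SE 2.29, edgeR adjusted p = 0.00315). Without libraries 20 to 24 and 26 to 29 it was 12.43 (edgeR adjusted p = 0.000336), and without libraries 20 to 37 it was 12.001 (adjusted p = 0.0172). It was the only variant of the family called in males in either fit. Muri28 reached 5 reads in PAE libraries alone, so it entered the test only through the exposure where it was high. Its p-values are therefore a description. The call was lost with controls 1 to 10 alone (10.86, adjusted p = 0.129), with PAE libraries 20 to 29 alone (1.49, adjusted p = 0.567) and with a random block for run in limma (6.01, adjusted p = 0.497).

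Muri111 was the only variant with reads in PAE libraries of every label stretch and in no control. It was 0.0399%, 0.0365%, 0.0449% and 0.0120% in PAE females 11, 12, 13 and 15, and 0.0397% and 0.0461% in PAE females 27 and 28. In PAE males 17 and 18 it was 0.0246% and 0.0238%, and in males 20 to 24 it was 0.0644%, 0.0653%, 0.0355%, 0.163% and 0.113%. The other 6 PAE libraries and all 18 controls had no read.

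Muri111 averaged 0.0489% ± 0.0539 in PAE males (SD, n = 10) and 0.0243% ± 0.0208 in PAE females (n = 9). The fold over controls was at least 797 in males (edgeR adjusted p = 0.00315) and at least 289 in females (adjusted p = 0.0185), against 3 reads over the control group. Muri111 reached 5 reads in PAE libraries alone, so it entered the test only through the group where it was high. The fitted log2 fold change was 10.73 in males and 9.79 in females. With controls 1 to 10 alone it was 10.45 and 9.57 (edgeR adjusted p = 0.0609 and 0.109), and with PAE libraries 11 to 19 alone 8.43 and 9.56 (adjusted p = 0.0814 and 0.0920). The calls were lost in these smaller sets of libraries. No control had a read of Muri111, so the direction of the fitted values was fixed in advance. The level was low, at 0.163% of reads or less.

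Muri108 and Muri133 were called higher in PAE females but were not specific to PAE. Muri108 had no read in control females and reads in 6 of 9 PAE females, highest at 0.259% and 0.194% in libraries 26 and 29 (adjusted p = 0.0192, edgeR). It was also read in control males 1, 2, 5, 6 and 7, at 0.00913% to 0.0694%. Muri133 had reads in 4 of 9 PAE females, at 0.0105% to 0.0767%, and in 3 control males (adjusted p = 0.0319). The Muri133 call was lost without any of control females 4, 9, 30 or 34.

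The exposure effect did not differ between the sexes past the threshold for any of the 95 variants (edgeR, 0 called; 4 at an unadjusted p under 0.05). No variant of the whole table was called, a background of 0%. DESeq2 called 2 Muribaculaceae variants (background 5.24%), edgeR with TMMwsp scaling 1 (2.35%) and limma 0 (0%). Without PAE male 25 edgeR called 6.

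The calls depended on which libraries stood for a group. With controls 1 to 10 alone, 0 variants were called in males and 0 in females (edgeR, 7 and 6 at an unadjusted p under 0.05; 1.87% and 1.12% of all variants called). With controls 30 to 37 alone there were 30 and 17 (background 30.9% and 11.1%). With PAE libraries 11 to 19 alone there were 2 and 0 (0.363% and 0%), and with PAE libraries 20 to 29 alone 14 and 3 (22.4% and 1.63%). Without libraries 34 to 37 the counts were 9 and 0 (11.6% and 0.362%), and without 20 to 24 and 26 to 29 they were 1 and 0 (0.363% and 0%). With all of these left out they were again 1 and 0 (0.364% and 0%), and without libraries 20 to 37 also 1 and 0 (1.32% and 2.82%). The fit without libraries 20 to 37 compares control run 1 to 10 with PAE run 11 to 19. In females 10 variants had an unadjusted p under 0.05 there, and 14 to 16 in the fits with PAE libraries 11 to 19 alone and without the smaller sets (edgeR).

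**Figure D4:**
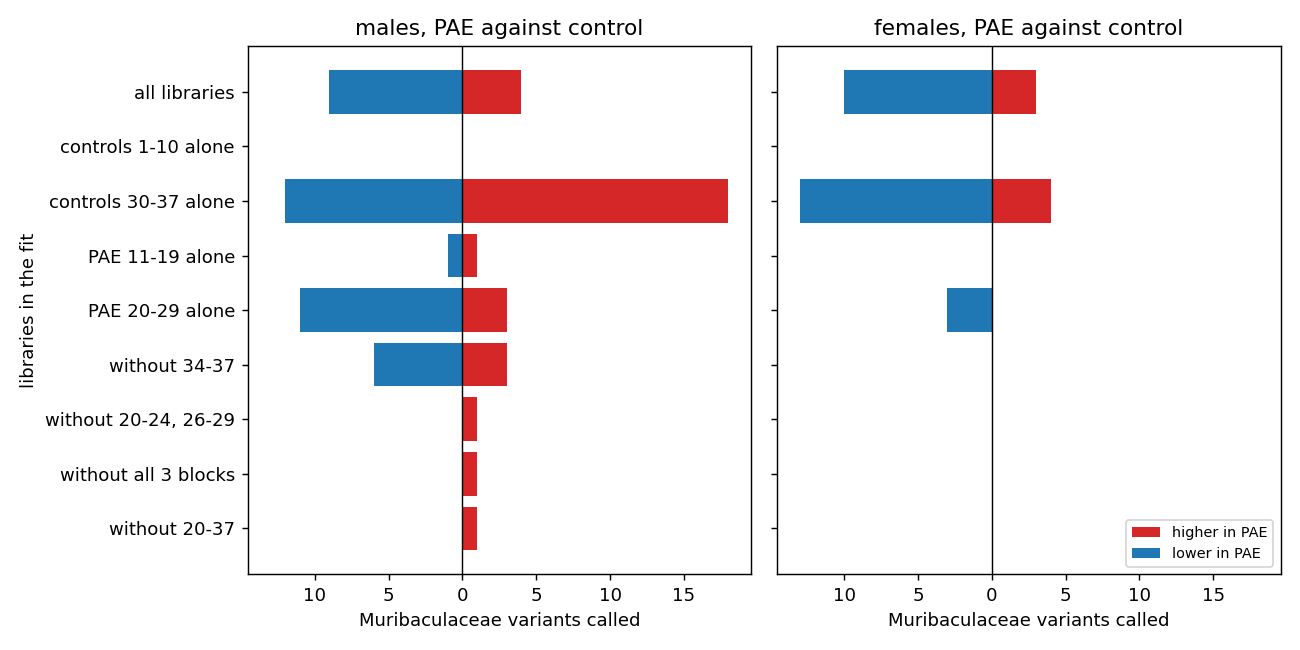
Bars give the number of Muribaculaceae variants called (edgeR, adjusted p under 0.05) higher in PAE (red, to the right) and lower in PAE (blue, to the left) in males and in females, for all libraries and for 8 choices of libraries. The 3 blocks left out in the second bar from the bottom are libraries 20 to 24, 26 to 29 and 34 to 37; with controls 1 to 10 alone no variant was called in either sex.

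A random block for run in limma left 0 calls in males and 0 in females (background 0%; 15 and 12 at an unadjusted p under 0.05). Without the block limma had called 19 in males and already 0 in females. The fitted log2 fold changes in males moved little, from 6.72 to 6.51 for Muri111, from 5.59 to 6.01 for Muri28 and from 6.09 to 5.51 for Muri18. In that fit the correlation within runs was estimated at 0.3497. Each run holds 1 exposure, so run and exposure were separated only through the spread between the 2 runs of each exposure.

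The 2 control runs could be compared with each other, since both hold water-only controls of both sexes. With sex as a covariate, 31 of the 95 variants were called between run 30 to 37 and run 1 to 10, 12 higher and 19 lower in the later run (edgeR). Of all 553 variants 32.4% were called, 10.1% higher and 22.2% lower, close to the 32.6% of the family. Among these 31, 7 of the 12 higher variants had no read in run 1 to 10, and 11 of the 19 lower ones had no read in run 30 to 37. Those 11 passed the filter through libraries 1 to 29 alone, PAE libraries included. The 6 tested variants that reached 5 reads in run 30 to 37 alone were among the 12 higher. The count therefore includes variants that could pass only through the side where they were high, and it is a description. With TMMwsp scaling 19 were higher and 15 lower (35.1% of all variants called). With log2 total reads as a covariate 28 were called, 10 higher and 18 lower (29.3%).

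Muri14 (305219c8) had the smallest p of the lower variants. It was 0.310% to 0.947% in run 1 to 10 (median 0.654%) and at most 0.00202% in run 30 to 37, an 832-fold ratio of means (log2 fold change -9.46, SE 1.15, edgeR adjusted p = 7.24e-08). In the PAE runs it was 0.338% to 0.893% and 0.0257% to 1.09%. So the PAE libraries resembled the earlier controls for this variant, and the later controls lay below all other libraries.

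Muri55 and Muri80 had reads in each of the 29 libraries numbered 1 to 29 and in none of the 8 others. Muri55 was 0.0108% to 0.3497% and Muri80 was 0.00681% to 0.222% in libraries 1 to 29. The fold was at least 1018 and 569 lower in the later controls than in the earlier ones (edgeR adjusted p = 5.38e-07 and 1.07e-06). Muri50 and Muri60 also had no read in run 30 to 37 and were called (adjusted p = 2.91e-06 and 3.17e-05). Muri50, Muri55, Muri60 and Muri80 passed the filter on reads through libraries 1 to 29 alone, PAE libraries included. Their values here are therefore a description. Among the 10 most abundant, Muri3 was 74.8-fold lower (adjusted p = 0.00103) and Muri7 was 686-fold lower (adjusted p = 5.77e-05).

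The 5 variants of run 30 to 37 led the higher ones. Muri59 averaged 0.336% ± 0.281 there (SD, n = 8) and was at least 2838-fold higher than in run 1 to 10 (edgeR adjusted p = 0.000104). The adjusted p was 0.000104 for Muri106, 0.000164 for Muri110, 0.000171 for Muri116 and 0.000182 for Muri102. These 5 passed the filter on reads through run 30 to 37 alone, so they had to differ between the runs and these values are a description.

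In PAE females 26 to 29 against 11 to 15, 2 of 95 variants were called, both lower, against 0.723% of all 553 (0.362% lower). Muri1 was 0.0126%, 0.00579%, 0.00414% and 0.0336% in the later females and 6.68%, 9.23%, 2.94%, 0.988% and 1.02% in the earlier ones (log2 fold change -8.18, SE 2.04, edgeR adjusted p = 0.0425). Muri3 was 0.0118%, 0.00250%, 0.00271% and 0.00305% against 8.22%, 2.96%, 0.755%, 3.61% and 0.972% (log2 fold change -9.28, SE 2.33, adjusted p = 0.0425). The groups did not overlap for either variant. Both calls were lost when any of 23 of the 37 libraries was left out, each of the 9 PAE females among them.

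PAE males 16 to 19 and 20 to 25 form an unbroken stretch of label numbers, so they were not tested against each other. Muri1 was 6.38%, 11.2%, 3.66% and 2.23% in males 16 to 19 and 0.00527% to 0.0477% in males 20 to 25. Muri3 was 1.66%, 4.42%, 6.46% and 3.31% against 0.00364% to 0.0127%. The levels did not overlap, as in PAE females.

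Some variants kept a near constant ratio to each other while both rose and fell. These pairs were picked after their values were seen, and the ratios are a description over libraries with at least 100 reads of both. Muri1 to Muri2 was 0.774 to 1.79 in 24 of libraries 1 to 33 (median 1.01), but 40.3, 42.6 and 91.1 in the 3 of libraries 34 to 37 that had enough reads. Muri9 to Muri11 was 1.01 to 1.33 in 28 libraries, those of 34 to 37 included. Muri18 to Muri19 was 0.921 to 1.23 in 22 libraries, but control libraries 30, 31 and 32 had 0.847%, 0.118% and 0.182% of Muri19 and no read of Muri18. The read minimum leaves such libraries out. Muri4 to Muri15 was 2.20 to 2.87 in 20 libraries, and Muri55 to Muri80 was 1.57 to 2.08 in 11.

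The named genus Muribaculum showed the same in 4 variants. Muri37, Muri47, Muri48 and Muri60 were within 1.26-fold of each other in each of the 20 libraries with at least 100 reads of all 4. In PAE male 17, for example, they were 0.292%, 0.309%, 0.268% and 0.285%. In run 30 to 37 they came apart. Muri37 was 0.246%, 0.627%, 1.10% and 0.785% and Muri47 was 0.346%, 0.259%, 0.432% and 0.288% in libraries 34 to 37, with no read in 30 to 33. Muri48 was 0.0841%, 0.390%, 0.497% and 0.152% in libraries 30 to 33, with no read in 34 to 37. Muri60 had no read in any of the 8.

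The other families fixed for comparison also differed more between the control runs than between control run 1 to 10 and PAE run 11 to 19. The mean distances were 0.739 and 0.364 in Rikenellaceae, 0.629 and 0.470 in Bacteroidaceae, 0.471 and 0.210 in Prevotellaceae, and 0.861 and 0.756 in Lachnospiraceae, beside 0.707 and 0.372 in Muribaculaceae. In Tannerellaceae they were 0.612 and 0.241, and in Marinifilaceae 0.575 and 0.144. The other families' distances were taken on shares without thinning, those of Muribaculaceae after thinning, so their sizes are not strictly comparable. The pattern was therefore not shown to be particular to Muribaculaceae.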

How the data were processed

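The deposited table holds raw counts, reads per sequence variant and library; a second deposited table gives taxon names. Per the labels' protocols, a NovaSeq read the amplicons for 250 cycles from each end. Cutadapt, Bowtie2 and GRCm39 are named by the submitters' processing notes, with no roles, and which denoiser and taxonomy were used is not given in the sources used here. Rows without a taxon name (2 rows, 22 reads), unassigned or eukaryotic rows (3 rows, 10 reads) and chloroplast or mitochondrial rows (10 rows, 1490 reads) were left out. Shares are percents of the 16138707 reads kept.

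Variants that reached 5 reads in 7 libraries or more were fitted with edgeR 4.0.16 (TMM, quasi-likelihood test, 4 group means, R 4.3.3), with Benjamini-Hochberg adjustment over the whole table and a threshold of 0.05. The run comparisons used a design with control run, sex within controls, both PAE female runs and PAE males. DESeq2 1.42.0 and limma 3.58.1 (centred log-ratios, 0.5 added) were alternatives, as were filters, scalings and subsets of libraries; the 4 subsets without libraries 20 to 24 and 26 to 29, without 34 to 37, without both sets or without 20 to 37 were chosen after seeing the data. The scripts were tested on simulated data. Folds against a group without reads are bounds at 3 reads over the group and cover counting error only. In controls 5 and 6, both male, title and description exchange names; the number used is the column's. No 2 libraries of a group agreed within sampling noise.

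Named variants are the 10 most abundant, the leading called variants of each comparison (up to 5 a direction), the most abundant variant of each library and up to 5 with a genus name. The members and lists were chosen with earlier results of these data known.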

Additional observations from a re-analysis of the deposited data

Results flagged for a closer look

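Of 24 sets of values checked for a sample far from the rest of its group, 6 were flagged; chance flags about 1 in 20 groups. The Muribaculaceae share of PAE male 17 was 48.0% of reads, the highest of the 10 PAE males, and that of control female 30 was 45.4%, the highest of the 7 control females. Among control females, library 34 was highest for Muri78 (0.772%), Muri102 (0.201%) and Muri116 (0.153%), and library 30 was highest for Muri106 (0.155%). Libraries 30 and 34 are the only 2 control females of run 30 to 37. Muri78, Muri102, Muri106 and Muri116 were named for being called lower in PAE, and each had reads in only 2 of the 7 control females. A flag there follows from how they were chosen, and the chance rate does not apply to them.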

How the results depend on the processing

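No paired analysis was possible because the groups share no label numbers. The family's log2 fold change in males was -0.43, -0.03 with limma and 0.0098 with limma and run as a random block. It turned to 0.17 with PAE libraries 11 to 19 alone, to 0.17 without libraries 20 to 24 and 26 to 29, to 0.015 without these and 34 to 37 and to 0.41 without libraries 20 to 37; leaving out single libraries it was -0.59 to -0.29 in males and -0.48 to -0.23 in females. Muri19 in males turned to -0.44, -0.22, -0.80 and -1.13 in the last 4 of these settings, and Muri18 to -0.92 in the last. The cause was not tested.

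Variants called in males were 99 with a filter of 1 read in 2 libraries, 1 with 10 reads in 18 libraries, 103 with no filter, 0 with the block, 0 with controls 1 to 10 alone, 30 with controls 30 to 37 alone, 2 with PAE libraries 11 to 19 alone, and 1 without libraries 20 to 24 and 26 to 29, also when 34 to 37 were left out, and without libraries 20 to 37. In females they were 82, 0, 57, 0, 0, 17, 0 and 0 in the same order, 3 with PAE libraries 20 to 29 alone, 0 without libraries 34 to 37, 0 without 20 to 37 and 0 with limma. Between control runs they were 109, 16 and 88 under the 3 filters. Looser filters test more variants read in few libraries. The difference between sexes gave 1 with TMMwsp, 1 with family reads as library size and 2 with DESeq2. PAE female runs gave 0 with TMMwsp, library totals, the looser filter or depth as a covariate, 1 with family reads as library size or without libraries 34 to 37, 4 with limma and 8 with DESeq2. Without 1 library at a time the counts were 10 to 17 (males), 8 to 13 (females, 8 without control female 34), 0 to 6 (difference), 27 to 35 (control runs) and 0 to 2 (PAE female runs).

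The difference in observed variants in males was -8.0 and the male distance 0.479 without all 3 sets of libraries, and the distance was 0.342 without libraries 20 to 37; without single libraries they were -24.3 to -20.3 and 0.667 to 0.701, and in females -11.3 to -3.33 and 0.570 to 0.635. Over named variants and settings, 1287 values kept side and direction, 197 lost the call and 5 turned.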
